A study of Drosophila melanogaster with 2 samples.

Results

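Of the 2876 places where tagged Zelda passed the authors' reproducibility threshold in fly embryos, 746 lay at divergent promoters, that is, with the summit within 500 bp of an annotated protein-coding start on the plus strand and of another on the minus strand (25.9%, 95% Wilson interval 24.4 to 27.6%). They made up 40.2% of the 1856 thresholded summits within 500 bp of any start. The other 1110 promoter summits had starts of 1 strand only within that distance and are called one-strand promoter summits, and 1020 summits lay farther from every start and are called distal. The threshold had kept the peaks of highest pooled signal, and among those 2876 the 746 were chosen by position alone.

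The embryos came from 1 stably transgenic Drosophila melanogaster line, vfl-GFP, in which GFP is joined to the C-terminus of vfl (vielfaltig), another name of the gene zld. Whole embryos of both sexes, collected over 0 to 24 hours of development, were used in 2 biological replicates, labelled 2 and 3, and there was no untagged or treated group. The description of the samples names an antibody against GFP, while the antibody field reads vfl. Whether the line also carried untagged zld is not given in the sources used here, and control reads were not analysed here. In whole embryos of this age span, binding in more cells and more binding per cell cannot be told apart. No cell type was called.

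Zelda is a zinc finger pioneer factor: it can bind sites in closed chromatin, and in the early embryo it marks enhancers and promoters before the zygotic genome is switched on. Its best known site is CAGGTAG. In the compact fly genome many housekeeping genes stand head to head, so that a short stretch of DNA serves as promoter for both neighbours. Such promoters often carry sites of DREF (TATCGATA), of the insulator protein BEAF-32 (CGATA, which is part of the DREF site) and of the core promoter factor M1BP (GGTCACAC).

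To show what these places look like, the plus strand between the nearest starts is printed for 7 pairs, each named as minus-strand gene and then plus-strand gene. In all 7 the summit lay between the starts and no annotated exon lay in the printed stretch. They were chosen among pairs of this kind with starts at most 300 bp apart: the first 4 had the highest pooled signal, and the last 3 were the strongest with GGTCACAC, AGTGTTG and CAGGTAG. Capitals mark these words and TATCGATA where present. Coordinates are dm6, read from the NCBI Release 6 assembly.
Tcs5/CHMP2B, chr3L:5139396-5139618: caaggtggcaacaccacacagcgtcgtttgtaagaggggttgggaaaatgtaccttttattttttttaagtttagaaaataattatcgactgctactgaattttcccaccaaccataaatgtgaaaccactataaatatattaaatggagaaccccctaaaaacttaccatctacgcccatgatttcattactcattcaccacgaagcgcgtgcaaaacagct
Art3/mRpS10, chr3R:15229409-15229664: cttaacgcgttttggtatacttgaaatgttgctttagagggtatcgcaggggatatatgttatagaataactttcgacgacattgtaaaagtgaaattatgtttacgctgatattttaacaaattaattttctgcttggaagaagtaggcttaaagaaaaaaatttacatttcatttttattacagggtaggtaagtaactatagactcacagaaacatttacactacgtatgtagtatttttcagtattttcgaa
Atat/Shc, chr3L:9426759-9427009: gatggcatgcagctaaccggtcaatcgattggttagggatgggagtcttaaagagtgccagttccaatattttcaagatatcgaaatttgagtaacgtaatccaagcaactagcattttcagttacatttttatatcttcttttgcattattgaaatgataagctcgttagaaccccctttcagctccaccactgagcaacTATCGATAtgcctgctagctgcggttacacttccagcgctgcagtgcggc
Lon/PIG-F, chr3L:19612200-19612454: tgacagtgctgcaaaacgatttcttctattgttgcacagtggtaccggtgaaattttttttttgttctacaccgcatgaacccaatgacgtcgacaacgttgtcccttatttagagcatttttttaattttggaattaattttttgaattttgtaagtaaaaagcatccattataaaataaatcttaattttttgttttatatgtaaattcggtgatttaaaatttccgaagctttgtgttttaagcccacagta
Nle/Sf3b1, chr2L:568122-568339: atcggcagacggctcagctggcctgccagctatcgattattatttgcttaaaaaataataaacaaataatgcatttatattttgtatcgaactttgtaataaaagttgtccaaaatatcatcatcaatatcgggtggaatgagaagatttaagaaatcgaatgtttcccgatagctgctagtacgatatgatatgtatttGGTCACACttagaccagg
alphaCOP/CG13919, chr3L:1645200-1645466: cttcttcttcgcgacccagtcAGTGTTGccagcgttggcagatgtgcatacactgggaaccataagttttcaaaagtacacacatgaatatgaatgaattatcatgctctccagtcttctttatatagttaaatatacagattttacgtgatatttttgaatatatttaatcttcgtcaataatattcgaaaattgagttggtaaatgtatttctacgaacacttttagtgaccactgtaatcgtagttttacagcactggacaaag
mrn/CG12301, chr3L:15580538-15580799: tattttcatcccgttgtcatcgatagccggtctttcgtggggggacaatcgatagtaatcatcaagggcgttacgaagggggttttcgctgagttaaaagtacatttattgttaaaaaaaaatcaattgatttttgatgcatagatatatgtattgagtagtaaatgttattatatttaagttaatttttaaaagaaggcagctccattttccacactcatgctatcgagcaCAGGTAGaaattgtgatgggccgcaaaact
Of the 4 strongest, Atat/Shc holds TATCGATA and the other 3 hold none of the 4 words. CHMP2B encodes a subunit of the ESCRT membrane-cutting machinery, Art3 an arginine methyltransferase, Atat a tubulin acetyltransferase and Lon a mitochondrial protease.

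Divergent promoter intervals carried thresholded summits more often than one-strand intervals did. The annotation gives 2536 divergent promoter intervals, merged stretches of DNA within reach of starts on both strands, and 700 of them held a thresholded summit (27.6%, interval 25.9 to 29.4%), against 1052 of 15680 one-strand intervals (6.71%, 6.33 to 7.11%). With each replicate's own 2876 strongest peaks the shares were 26.7% and 6.64% in replicate 2 and 26.1% and 7.07% in replicate 3. The difference between the classes was thus far larger than the difference between the replicates. Divergent intervals were the shorter kind, with a median of 706 bp against 1001 bp. Per megabase of each class there were 445 thresholded summits in divergent intervals, 81.1 in one-strand intervals and 8.35 in the rest of the genome. The relaxed pooled list, which holds 30000 peaks of any strength, also had more summits per megabase in divergent intervals (1241) than in one-strand intervals (525). One-strand intervals are all stretches within reach of starts on only the plus or only the minus strand. They therefore include the outer flanks of divergent promoters, which were not counted apart. Whether, and by how much, these flanks lower the one-strand values was not tested. The comparison is thus between classes of position, not between separate promoters. The count by gene given below has no such flanks.

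A relaxed summit at a divergent promoter passed the threshold more often than one elsewhere. Of 2079 relaxed pooled summits at divergent promoters 35.9% (33.8 to 38.0%) were thresholded, against 15.5% at one-strand promoters and 4.92% of distal summits, where the background over all relaxed summits was 9.59%. The shares that reached each replicate's own strongest 2876 were 36.7%, 16.2% and 4.95% in replicate 2 and 33.8%, 16.2% and 4.85% in replicate 3, in the same order of classes. Just inside the threshold stood the pairs Ltn1/CG9300, M1BP/CG8202 and NELF-B/CG12155, all with a pooled signal of 61.9. Just outside stood Zip99C/CG34133 and Daao1/CG7220, both at 61.7, and Ptp52F/Lis-1 at 61.5.

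Because a summit at a divergent promoter lies near at least 2 genes, these summits reached many genes. Of 13968 protein-coding genes 1450 (10.4%) had a start within 500 bp of a divergent promoter summit, which is 28.2% of the 5141 genes with a start at a divergent interval. Counting thresholded summits of every class, 1648 of those 5141 genes (32.1%, 30.8 to 33.3%) had one within 500 bp, against 815 of the 8827 other genes (9.23%, 8.65 to 9.85%). In replicate 2 the shares were 31.1% and 9.14%, and in replicate 3 they were 30.7% and 9.60%.

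The summits sat mostly in the DNA between the 2 genes. Summits between the nearest starts of a head-to-head pair numbered 614 (82.3%, 79.4 to 84.9%), 123 (16.5%) lay just outside such a pair, in the transcribed part of one of its genes, and 9 (1.21%) had starts that coincide or face each other. The distance between the nearest starts had a median of 277 bp over all 746 (quartiles 195 and 365 bp) and ran from 255 bp of overlap to 717 bp apart. The nearer start was a median of 71.5 bp from the summit and the farther one 204.5 bp. The nearer start was on the plus strand at 390 summits and on the minus strand at 351, with 5 equally far from both, so neither strand was favoured beyond counting error. The summit was upstream of its nearer start by a median of 64 bp here and by 98.5 bp at one-strand promoters. Of the 614 summits between the starts, 280 (45.6%, 41.7 to 49.6%) were within 50 bp of the midpoint.

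**Figure D1:**
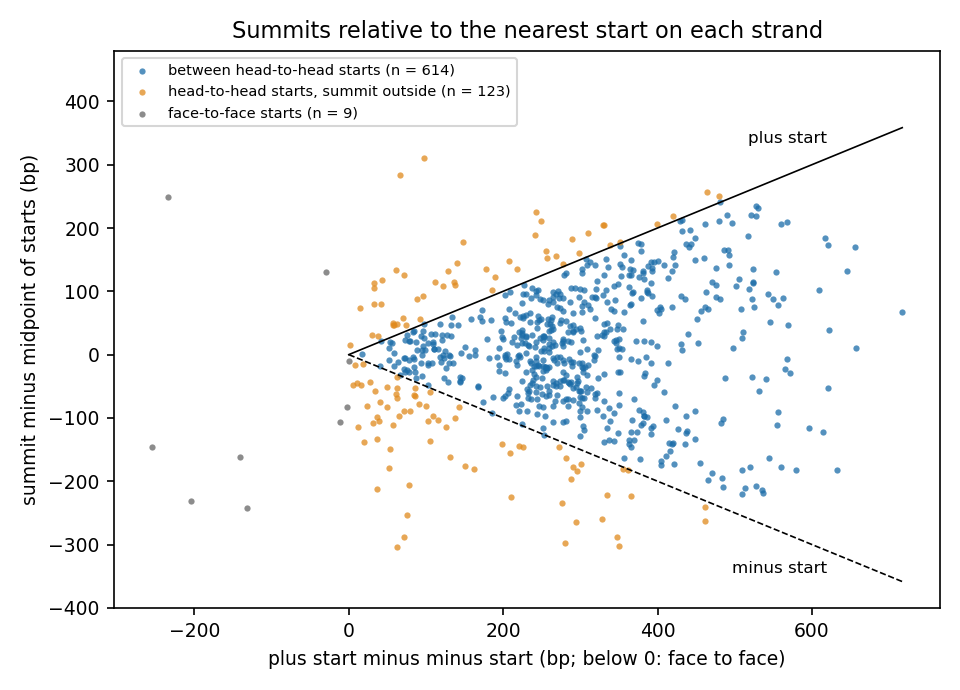
Each point is 1 of the 746 summits, placed by the distance between its nearest starts on the 2 strands (x axis, bp) and by its position relative to their midpoint (y axis, bp). The lines mark the starts: the 614 blue summits lie between them, the 123 orange ones outside a head-to-head pair, and the 9 grey ones at starts that face each other.

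The 9 face-to-face summits included CG4741/Adck1, with a signal of 210 in replicate 2, 89.2 in replicate 3 and 295 in the pooled list, and CG31808/Cyt-c-d, with 134, 85.5 and 218. The other 7 had pooled signals of 64.9 to 111, so these 2 were the strongest. Cyt-c-d encodes a cytochrome c. The widest spacing among the 746, 717 bp, belonged to CG2246/CG31021, with 63.0 in replicate 2, 8.25 in replicate 3 and 70.3 pooled.

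Binding varied with the distance between the starts, which is grouped here with each upper limit included. For each interval the distance is that of the plus and minus starts nearest its middle. These can differ from the starts nearest a summit, so a group can hold summits whose own nearest starts are spaced otherwise. Intervals with starts 200 to 300 bp apart held a thresholded summit most often, in 224 of 500 cases (44.8%, 40.5 to 49.2%), followed by 37.7% (32.8 to 42.8%) at 300 to 400 bp. The share was 30.3% at 1 to 100 bp, 25.8% at 100 to 200 bp, 24.1% at 400 to 600 bp and 21.1% where the nearest starts coincide or face each other. At 600 to 1000 bp it was 2.23%, 9 of 404. Replicate 2 alone gave 44.4% at 200 to 300 bp and 24.3% at 100 to 200 bp, and replicate 3 alone gave 41.8% and 27.4%, so in both replicates that step was larger than the difference between them.

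**Figure D2:**
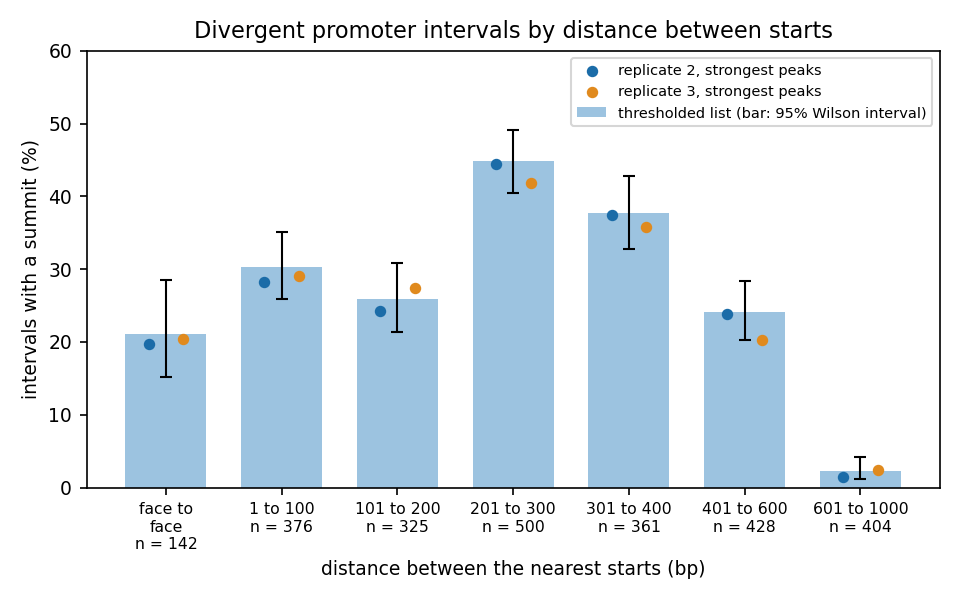
Bars give the share of divergent promoter intervals (%) with a thresholded summit, by distance (bp) between the starts nearest the middle of the interval. Error bars are 95% Wilson intervals, and points give the same share for each replicate's own 2876 strongest peaks. The bars at 200 to 300 bp (44.8%) and 300 to 400 bp (37.7%) stand above the others, and both replicates follow the bars.

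Interval length falls with the distance by construction, since fewer positions are then in reach of both starts. Its median was 860 bp at 100 to 200 bp, 746.5 bp at 200 to 300 bp, 654 bp at 300 to 400 bp, 508.5 bp at 400 to 600 bp and 246.5 bp at 600 to 1000 bp. Counted per megabase, there were 268 summits at starts that coincide or face each other, 333 at 1 to 100 bp, 315 at 100 to 200 bp, 622 at 200 to 300 bp, 661 at 300 to 400 bp, 501 at 400 to 600 bp and 106 at 600 to 1000 bp. The rise above 200 bp and the low value above 600 bp were thus both present per unit of length. Length does not correct for which positions are in reach. Above 600 bp, positions close to either start were out of reach of the other, while the 746 summits lay a median of 71.5 bp from their nearer start. Whether, and by how much, the 500 bp limit itself lowers the value above 600 bp was not tested. At closer starts the intervals hold more of the transcribed parts of both genes. Signal changed little with the distance between the starts nearest the summit. The Spearman rho of pooled signal and that distance was −0.14 over the 614 summits between starts, which share 2 libraries.

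The strongest divergent promoter peak was at Chro, which encodes the chromodomain protein Chromator of polytene interbands, and Ssl1, which encodes a TFIIH subunit. It lay on arm 3L at positions 22878709 to 22879092, with its summit 84 bp inside Chro, and ranked 5 among all thresholded peaks. Its signal was 500.5 in replicate 2, 310.1 in replicate 3 and 810.5 in the pooled list. Next came Pex11ab/CG8320, at a peroxin gene, with 434, 255 and 693, and Tcs5/CHMP2B, with 431, 246 and 676. After it stood mRpS23/CenG1A with 333, 259.7 and 592, where CenG1A encodes an Arf GTPase-activating protein. The signal scales of the replicates' lists may differ, so the replicates are compared by rank: Chro/Ssl1 ranked 5 in replicate 2 and 6 in replicate 3, and mRpS23/CenG1A ranked 21 and 9.

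The other pairs among the 20 strongest were Pdrg1/Pal1, mRpL23/CG9004, Art3/mRpS10, Atat/Shc, CG5611/Mtl, Fbw5/CG9147, tank/CG12194, Lon/PIG-F, CG5757/CG5098, Mkk4/SLIRP2, Coq4/CG32176, Mnat9/CG1792, CG11309/CG7632, CG8372/CG8360, RpL34b/CG8132 and Hrd3/PTPMT1. Among them are genes of a Rac-type GTPase (Mtl), a MAP kinase kinase (Mkk4), ubiquinone synthesis (Coq4), GPI anchor synthesis (PIG-F) and protein degradation at the endoplasmic reticulum (Hrd3). The 20 ran from 364 to 810.5 in the pooled list, and ranked 75 or better in replicate 2 and 101 or better in replicate 3. All 20 were therefore far inside the strongest 2876 of both replicates, which their choice by pooled signal favoured.

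Divergent promoter summits were slightly stronger than the other classes. The median pooled signal was 97.4 (range 61.9 to 810.5), against 89.2 at one-strand and 84.6 at distal summits. In replicate 2 the medians were 57.5, 52.2 and 50.7, and in replicate 3 they were 41.9, 40.5 and 36.8. The classes kept that order in both libraries, with wide overlap, as the pooled quartiles were 75.6 and 136 for divergent and 72.2 and 124 for one-strand summits. The ratio of the pooled medians, divergent over one-strand, was 1.09 in the whole list and 1.01 within its stronger 1438 peaks. Along the thresholded list, 30.7% of ranks 1 to 719 were divergent promoter summits, 30.0% of ranks 720 to 1438, 22.0% of ranks 1439 to 2157 and 21.0% of ranks 2158 to 2876. At the very top they were not more frequent than in the list as a whole beyond counting error, with 4 of the first 20 and 31 of the first 100.

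Nearly all 746 summits had a relaxed summit close by in each replicate, which the reproducibility threshold on the same 2 replicates had favoured. One lay within 200 bp in replicate 2 for 743 of the 746 and in replicate 3 for 744, at a median distance of 11 bp and 14 bp. Over all 2876 thresholded summits the shares with one were 99.8% and 99.3%, so these matches do not set the 746 apart. The matched summit was among the strongest 2876 of replicate 2 for 662 (88.7%) and of replicate 3 for 599 (80.3%). Over all 2876 thresholded summits these shares were 85.3% and 77.0%. Both held for 527 (70.6%, 67.3 to 73.8%), against 65.8% (62.9 to 68.5%) of one-strand and 59.1% (56.1 to 62.1%) of distal summits, where the background over all 2876 was 64.7%. The intervals of divergent and one-strand summits overlap, and 12 divergent promoter summits (1.61%) were in neither replicate's strongest list.

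**Figure D3:**
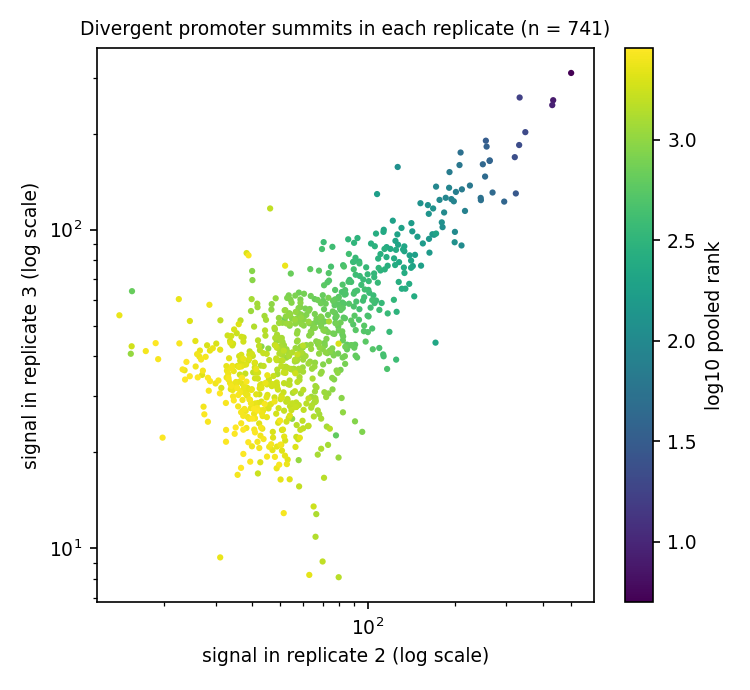
Each point is 1 of the 741 divergent promoter summits with a relaxed summit within 200 bp in both replicates, with the authors' signal in replicate 2 (x axis, log scale) and replicate 3 (y axis, log scale), coloured by pooled rank. The strong summits lie closer to 1 line than the weak ones, for which replicate 3 goes down to 8.11.

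Across those 741 summits the replicates' signals had a Spearman rho of 0.61, beside 0.53 over 1103 one-strand and 0.44 over 1007 distal summits. These are descriptions, since the points share 2 libraries and were all chosen on the pooled signal. That signal was close to the sum of the 2 replicate signals (median ratio 1.00), so it adds no separate measurement. Of the 5 summits without a relaxed summit within 200 bp in one replicate, the stronger summit of RpL18/Neos ranked highest, with 51.7 in replicate 3, 101 pooled and the nearest summit of replicate 2 254 bp away. CG45088/fand and THADA/Hers also lacked one in replicate 2, and CG13531/RpL23 and LRR/Coq9 lacked one in replicate 3.

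Several of the largest rank differences between replicates came with a second summit close by. Among divergent promoter summits in the stronger 1438 of the list, CG9393/Vps45 had 66.2 in replicate 2 and 10.9 in replicate 3 at the nearest summit, but a second summit of replicate 3 within 200 bp had 37.0. CG10747/Pyroxd1 had 2 thresholded summits: the nearest replicate summits to the weaker one had 15.5 in replicate 2 and 64.1 in replicate 3, and the stronger one had 152 and 121. Xe7/Atg17, CG12093/Atg2 and CG13850/lqfR likewise had 2, the weaker of which was the discordant one. Atg2, lqfR, CG3735/Taldo and Nup98-96/mbc ranked higher in replicate 2, and Xe7, CG13126/CG4709, CG13933/PolD2 and Drat/Cyt-b5 in replicate 3. Drat/Cyt-b5 had no second summit near, with 40.1 in replicate 2 and 74.1 in replicate 3. Counting any summit within 200 bp in place of the nearest raised the share found in both strongest lists to 73.3%.

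Most divergent intervals with binding held a single summit. There were 654 with 1 and 46 with 2, and none with more. The paired summits were 199 to 273 bp apart, with a median of 205 bp, and 199 bp is also the smallest spacing of any neighbouring thresholded summits, so the deposited list resolves no closer pair. At CG5611/Mtl the stronger summit had 255 in replicate 2, 190.1 in replicate 3 and 441 pooled, and the weaker had 70.0, 9.09 and 85.6. At RpL34b/CG8132 the stronger had 245, 126 and 373, and the weaker had 113, 40.0 and 158. Bdp1/CG6565 was the most even of the 5 strongest such intervals, with 308 and 222 pooled, although 1 summit of replicate 2 (172) was the nearest to both. CG3437/CG3552 and Fur1/Vps33B were the remaining 2.

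The DREF word was more frequent at divergent promoter summits than at the others. TATCGATA was searched in both orientations up to 100 bp either side of each summit. It was found at 104 of 746 (13.9%, 11.6 to 16.6%), against 7.57% (6.15 to 9.27%) of one-strand summits and 0.392% of distal summits. The same comparison with one-strand summits gave 13.4% and 7.45% in replicate 2 and 12.7% and 7.56% in replicate 3, so the replicates differed far less than the classes. The nearest match was a median of 42.5 bp from the summit. Su(var)3-9/Set, at the gene of a histone H3 lysine methyltransferase, had the most, 3 words, with 40.0 in replicate 2, 40.7 in replicate 3 and 78.1 pooled. SF2/pad, CG11180/FAM21, Klp67A/CG4452 and CG3862/dock came next, with pooled signals of 160.2, 131, 100.2 and 91.6.

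Part of this frequency is shared by divergent promoters that held no summit. Windows of the same length were also placed at the middle of each divergent interval, called its midpoint from here on. There TATCGATA lay in 11.7% (9.54 to 14.3%) of intervals with a divergent promoter summit, against 7.08% (5.99 to 8.35%) of the 1836 without one. All 2536 midpoints together gave 8.36%. Where the starts nearest the midpoint were 200 to 400 bp apart, the shares were 36 of 360 (7.31 to 13.5%) and 4.99% (3.40 to 7.26%). There replicate 2 alone gave 8.68% and 5.95% and replicate 3 alone 10.4% and 4.97%, and in replicate 2 the intervals of the 2 shares overlap. CGATA, which also counts each TATCGATA, lay at 48.9% of divergent promoter summits, against 40.7% of one-strand and 21.9% of distal summits.

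**Figure D4:**
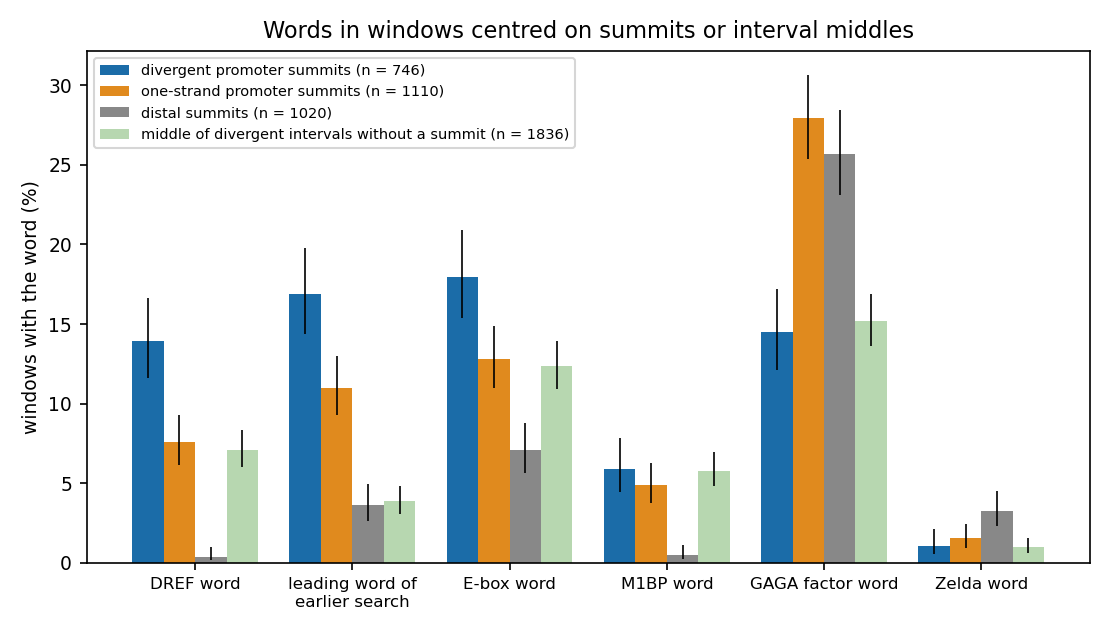
Bars give the share of windows of 100 bp either side (%) that hold a word, with 95% Wilson intervals, for windows centred on divergent promoter, one-strand promoter and distal summits and on the midpoints of divergent intervals without a summit. The DREF word stands at 13.9% in the first set and 7.57% in the second, the GAGA factor word at 14.5% and 27.9%, and the Zelda word at 1.07% and 1.53%.

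CAGGTAG, the Zelda word, was rare at these summits. It lay at 8 of 746 (1.07%, 0.544 to 2.10%), against 1.53% of one-strand and 3.24% (2.31 to 4.51%) of distal summits. Midpoints of intervals with a divergent promoter summit held it in 0.714%, midpoints of those without in 0.980%, and all midpoints in 0.907%. In replicate 2 alone the share at divergent promoter summits was 1.24%, and in replicate 3 alone it was 0.719%. The strongest of the 8 was mrn/CG12301, printed above, where mrn encodes a TFIIH subunit, with 76.9 in replicate 2, 59.0 in replicate 3 and 135 pooled. The windows of mrn and Glg1 also held TATCGATA, which for mrn lay outside the printed stretch. The others were Glg1/M6, Vlet/bif, CG12379/MagR, CG10949/Arpc2, CG4287/CG5516, AIMP1/PAN2 and Nup93-2/CG3817, with pooled signals of 96.4 down to 64.0. None of the 8 was among the strongest 186 divergent promoter summits. TAGGTAG, a close relative of the word, lay at 5 (0.670%), against 2.16% of one-strand and 1.76% of distal summits.

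The remaining words differed in kind. GGTCACAC, the M1BP word, lay at 44 summits (5.90%, 4.42 to 7.83%), against 4.86% of one-strand and 0.490% of distal summits, and at 5.77% of midpoints without a summit, so these shares did not differ beyond counting error except at distal places. Among its strongest bearers were Ripalpha/RpL7 (194 in replicate 2, 125 in replicate 3), GatA/P5cr (105 and 70.9), Ire1/Mrm2 (102 and 56.9) and CG7130/RpLP0 (70.3 and 59.8). GAGAG, the GAGA factor word, was found at 14.5% (12.1 to 17.2%), about as often as at midpoints without a summit (15.2%), against 27.9% (25.4 to 30.6%) of one-strand and 25.7% of distal summits. Replicate 2 gave 14.6% at divergent and 26.8% at one-strand summits, and replicate 3 gave 12.9% and 27.1%. CAGCTG, an E-box, lay at 18.0% (15.4 to 20.9%), against 12.8% (11.0 to 14.9%) of one-strand and 7.06% of distal summits, and midpoints with a summit (14.0%) and without (12.4%) did not differ beyond counting error. In replicate 2 it lay at 18.1% of divergent and 12.1% of one-strand summits, and in replicate 3 at 16.4% and 12.1%, where the intervals overlap. TATAAA lay at 34.0%, 27.1% and 31.5% of the 3 classes in that order.

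AGTGTTG had been picked by an earlier search over all words at these peaks, so its presence at them is no independent result. It lay at 126 divergent promoter summits (16.9%, 14.4 to 19.7%), against 11.0% (9.28 to 13.0%) of one-strand and 3.63% of distal summits. Replicate 2 gave 17.3% and 11.3% for divergent and one-strand summits and replicate 3 gave 14.2% and 10.6%, where the intervals overlap. Midpoints of intervals with a summit held it in 10.7%, and those without in 3.87%. At starts 200 to 400 bp apart, where windows at the midpoint lie farther from the starts, the shares were 5.56% and 4.19% and their intervals overlap. AACACTG, from the same search, lay at 13.1%, 9.01% and 4.02% of the 3 classes, and ACAGTGG at 4.42%, 8.02% and 12.8%, which is the reverse order. Median G and C content of the windows was 35.8% at divergent promoter, 38.8% at one-strand and 36.3% at distal summits, and its part in the word shares was not tested.

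The M1BP word was less frequent among the strongest summits than among the weakest. TATCGATA lay at 9.68% (6.21 to 14.8%) of the strongest 186 divergent promoter summits and at 17.7% (12.9 to 23.9%) of the weakest 186, with 13.9% and 14.4% between, and these intervals overlap. GGTCACAC lay at 2.15% (0.839 to 5.40%) of the strongest 186 and 9.14% (5.78 to 14.1%) of the weakest 186, which do not overlap, with 5.88% and 6.42% between. AGTGTTG (15.1% of the strongest 186 and 14.5% of the weakest 186) and CAGCTG (17.7% of each) showed no such difference. Summits with GGTCACAC had a median of 49.4 in replicate 2, 36.7 in replicate 3 and 80.5 pooled, against 58.1, 42.2 and 98.2 without. For the 33 summits with ACAGTGG the medians were 93.7, 52.6 and 139, against 57.1, 41.7 and 96.7 without. ACAGTGG and AGTGTTG came from the earlier search of these peaks, so values for either word are no independent result. Of all 746, 243 (32.6%) held TATCGATA, GGTCACAC or AGTGTTG, against 20.8% of one-strand summits, and 21 held both TATCGATA and AGTGTTG.

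Ribosomal protein genes had a divergent promoter summit within 500 bp of a start more often than protein-coding genes in general. Of 86 cytoplasmic ribosomal protein genes 27 (31.4%) had a start within 500 bp of a divergent promoter summit, which is 50.9% of the 53 with a divergent interval, beside the backgrounds of 10.4% and 28.2%. The replicates' own strongest lists gave 25 each. Counting thresholded summits of every class, 51 of the 86 had one within 500 bp (59.3%), against 17.6% of all genes. The strongest were RpL34b (245 in replicate 2, 126 in replicate 3, 373 pooled), RpS27 (211, 134 and 345), RpL7 (194, 125 and 321) and RpL32 (141, 105 and 240.4). Of 73 mitochondrial ribosomal protein genes 24 (32.9%, and 41.4% of the 58 with a divergent interval) had one, 24 in replicate 2 and 20 in replicate 3. Counting every class, 27 of the 73 had one (37.0%). Those at divergent promoter summits were led by mRpS23, mRpL23, mRpS10 and mRpL24, with 592, 514, 489.9 and 229 pooled.

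Other housekeeping lists lay on both sides of the 28.2% background once only genes with a divergent interval were counted. Proteasome subunits had 9 of 32 (40.9% of the 22 with a divergent interval; 9 and 6 in replicates 2 and 3), led by Rpn6, Rpn3, Rpn5 and Prosbeta1 with 168, 152, 126 and 119.7 pooled. Vacuolar ATPase subunits, which acidify organelles, had 7 of 33 (7 of the 14 with a divergent interval), led by Vha36-1 (174). Aminoacyl-tRNA synthetases had 8 of 33 (34.8% of 23), led by SerRS (206), Mediator subunits 7 of 29 (33.3% of 21), led by MED30 (177 in replicate 2, 124 in replicate 3), and nuclear pore proteins 6 of 23 (30.0% of 20), led by Nup37 (345). Translation initiation factors had 6 of 44 (28.6% of 21), led by eIF4EHP (199.6), respiratory chain and ATP synthase subunits 12 of 84 (27.9% of 43), led by ND-ASHI (218), replication licensing genes 2 of 15 (2 of the 10 with a divergent interval), dup (159.9) and Orc5 (64.4), and cyclins and mitotic kinases 1 of 15 (1 of 7), aurA (110.2). These lists hold few genes, so single genes move the shares.

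Genes of factors that organise promoters were themselves among those with a summit. Of 19 insulator and core promoter factor genes 5 had a divergent promoter summit, which is 5 of the 11 with a divergent interval, beside 10.4% of all genes and 28.2% of all with an interval. They were Chro (500.5 in replicate 2, 310.1 in replicate 3), Cp190 (162 and 112), Dref (68.1 and 40.8), pzg (79.5 and 8.11) and M1BP (28.2 and 34.3). M1BP is within the lowest 3 of the 746, and pzg ranked 632 in replicate 2 and 29414 in replicate 3. Dref shares its interval with RpL13. Of 17 Polycomb group genes, whose products keep developmental genes silent, 10 had a divergent interval and 5 a summit there. These were Jarid2, E(z), Sfmbt, Su(z)12 and phol, with pooled signals of 68.6 to 103. Both lists are too short for their shares to be set apart from the background.

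Few patterning genes stand at divergent promoters, and where they do their counts are too small to be set apart from the 28.2% of all genes with a divergent interval that had a summit. Of 22 genes of the first zygotic wave 4 had a divergent interval and 1, kuk, a nuclear envelope gene, had a summit there (41.4 in replicate 2, 30.4 in replicate 3). Of 12 segment polarity genes 2 had an interval and 1, smo, the Hedgehog signal transducer, had a summit (41.8 and 27.0), which was not among the strongest 2876 of replicate 3. None of 20 gap and pair-rule genes and none of 8 homeotic genes had a divergent interval. Among genes of terminal differentiation, 39 of 230 chemosensory receptor and odorant-binding genes had an interval and 1, Ir60e, had a summit (58.3 and 33.7), which is 2.56% of the 39 beside that 28.2%. Of 115 cuticle protein genes 12 had an interval and 0 had a summit, with the upper Wilson bound of 24.2% that 0 of 12 gives.

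**Figure D5:**
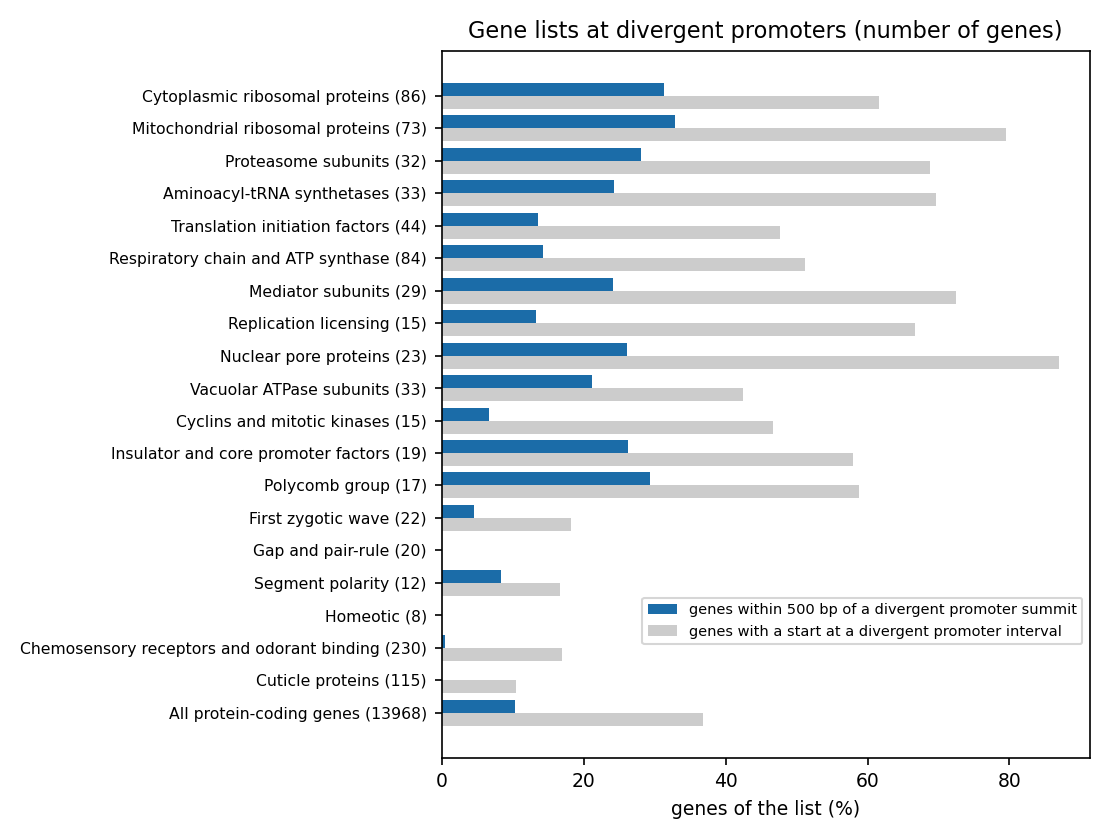
For each gene list, the blue bar gives the share of its genes (%) with a start within 500 bp of a divergent promoter summit and the grey bar the share with a start at a divergent promoter interval. Cytoplasmic (31.4%) and mitochondrial (32.9%) ribosomal protein genes have the longest blue bars, against 10.4% of all protein-coding genes.

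Divergent intervals on X held a summit less often than those on 3R, 3L and 2L. A summit was present in 76 of 397 intervals on X (19.1%, 15.6 to 23.3%), against 33.5% on 3R, 29.9% on 3L, 28.1% on 2L and 24.9% on 2R. Replicate 2 alone gave 18.9% on X and 22.8 to 34.3% on those 4 arms, and replicate 3 alone gave 17.9% and 24.3 to 31.0%. The interval of X overlaps that of 2R (21.4 to 28.8%) and lies below those of the other 3 arms. Of the 12 intervals on chromosome 4, 0 held a summit, which allows a share of up to 24.2% (upper Wilson bound). The embryos were of both sexes.

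At the 500 bp limit a few bases decided the class. Just inside it on the farther strand were CCT8/CG30349 at 499 bp and CG3735/Taldo and CG15097/CG15082 at 498 bp. Just outside were CG43102/pasi1 at 503 bp, CG10804/CG10802 at 505 bp and alc/CG8788 at 512 bp, which count as one-strand. The inside pairs had pooled signals of 68.8, 93.3 and 69.4, and the outside pairs 70.0, 114 and 84.4.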

How the data were processed

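Chromatin immunoprecipitation with sequencing was done on 2 biological replicates of 1 line, with chromatin sheared to 200 to 800 (unit not stated), per the labels. The authors deposited peak lists with a signal value and a −log10 q value per peak; the relaxed lists hold 30000 peaks for each replicate and for both together, and the thresholded list holds 2876. No source used here names the aligner, peak caller or filters. The −log10 q values deposited were at one ceiling, 3.94, for all thresholded peaks and were not used. The authors' signal described and ranked peaks within a list only. Read depth is unknown, so no floor on counts was set, and Wilson intervals cover counting error over peaks that are not independent. The dm6 lists were used, and the dm3 lists were not used here.

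Summits were compared with 19630 starts of 13968 protein-coding genes (Ensembl 115, BDGP6.54, dm6 arm lengths). Positions count from 1. Divergent intervals are merged positions within 500 bp of a start on each strand. One-strand intervals are merged positions within 500 bp of starts on only the plus or only the minus strand. Replicate summits are the nearest relaxed ones, matched within 200 bp. Words were searched in both orientations. Sequence of arm 2R is not printed. No p-value was computed, as there is 1 group. The functions were tested on simulated data. Python 3.11.15, numpy 2.4.6, pandas 2.3.3, scipy 1.17.1 and matplotlib 3.10.9 were used.

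The summit rule, gene lists, words and named pairs were chosen with earlier results of these data known. Named pairs are the 20 strongest and 3 weakest, the 5 in each direction with the largest rank difference among ranks 1 to 1438, those unmatched in a replicate, the strongest with CAGGTAG and GGTCACAC, those with most TATCGATA, those at the limits, the 5 intervals with most summits and up to 4 genes per list. The face-to-face and widest pairs, the strongest summit within 200 bp and the other 3 CAGGTAG pairs were added after seeing values. Gene names sop, Tpr, calypso and elba2 were not matched. Alternatives were other distances, 1 start per gene, the strongest 1438 peaks and each replicate alone. One pair that the rule names is not reported here.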

Additional observations from a re-analysis of the deposited data

How the results depend on the processing

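Of 46 alternatives, 5 were for the ratio of median signal, divergent over one-strand, which stayed above 1 in all 5. The others were for shares, which have no direction that could reverse. A value counted as moved when it changed by more than the SD between the lists of the 2 replicates, or left its Wilson interval. This happened in 31 of the 46. With the limit at 250 bp, 16.7% of thresholded summits were divergent, 24.4% of intervals held one, 44.7% of relaxed summits passed and 83.5% lay between head-to-head starts. At 1000 bp these were 31.6%, unmoved at 27.6%, 25.6% and 80.9%, with TATCGATA at 13.2%. With 1 start per gene, 24.1% were divergent and 74.5% lay between starts, and the signal ratio was 1.10. In the strongest 1438 peaks, 30.4% were divergent, 16.5% of intervals held one (fewer peaks by construction), the signal ratio was 1.01, TATCGATA stood at 12.6% and CAGGTAG at 0.686%. Leaving out a replicate gave 24.2 to 25.2% divergent, 26.1 to 26.7% of intervals, a signal ratio of 1.09 to 1.10, TATCGATA at 12.7 to 13.4%, 80.4 to 81.9% between starts and CAGGTAG at 0.719 to 1.24%. TATCGATA was at 14.5% of summits between starts. Within 50 bp of the summit TATCGATA was at 8.31% and CAGGTAG at 0.402%, and within 150 bp at 18.5% and 1.61%, as longer windows hold more words. Matches within 100 bp put 66.9% in both replicates' strongest lists, and the strongest 5000 of each 90.8%. The cause of the other changes was not tested. Counting any summit within 200 bp was chosen after seeing the data and gave 73.3%. The signal difference thus rests on the list as a whole: within its stronger 1438 peaks the classes were nearly equal. No paired analysis was possible because there is 1 group.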

Other observations

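Few divergent promoter summits lay near a pair of listed genes at once. Each of 122 listed genes was taken at its strongest such summit, which gave 118 summits, and 4 of these lay near 2 listed genes. RpS27/Nup37, a ribosomal and a nuclear pore gene whose starts are 144 bp apart, had 211 in replicate 2, 134 in replicate 3 and 345 pooled. RpL28/eIF1, with starts 381 bp apart, had 93.5, 79.4 and 176 at the summit nearer RpL28, and a second summit of 44.5, 46.5 and 89.6 nearer eIF1. Dref/RpL13 had 68.1, 40.8 and 107, with starts 84 bp apart. COX8/VhaM9.7-b, a cytochrome oxidase and a vacuolar ATPase gene with starts 415 bp apart, had 40.0, 31.6 and 69.7. The summit at Su(var)3-9/Set, with the most TATCGATA words, also lay within 500 bp of a start of eIF2gamma, a translation initiation factor gene.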
